A study of Mus musculus with 10 samples.

Results

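The comparison described here set chromatin accessibility in MC3T3-E1 cells given TNFa against that in untreated cells of the same line. MC3T3-E1 is a line of mouse osteoblasts, the cells that lay down bone matrix, and ATAC-seq measures accessibility by letting a transposase cut open DNA and counting the sequenced fragments, or tags, at each site. The untreated group (none) and the TNFa group (10 ng/ml) held 2 libraries each, all labelled as batch 1. Both groups had been kept in medium with 2.5% FBS for 30 min beforehand, and neither received BMP4. The sample labels give 3 h of TNFa, whereas the protocol has 30 min of TNFa followed by a 3 h step with or without BMP4, so the exposure is uncertain. The titles of the TNFa libraries also carry p65, which the labels leave unexplained. Nothing in the labels says that the 2 libraries of a group are separate cultures, and the p-values below therefore reflect library-to-library spread, possibly technical.

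The authors deposited 1 list of open 125 bp windows per group, called on the pooled libraries of that group against 2 libraries of sonicated DNA. Windows of the untreated list and of the TNFa list were paired where their starts lay on the same chromosome within 62 bp and each was the other's nearest. This gave 19021 pairs, which is 72.5% of the 26230 untreated windows and 81.7% of the 23288 TNFa windows, out of 97788 windows in the 4 lists of the series. Of the pairs, 7376 had identical coordinates and 18652 held enough tags to be tested. Each window is named here by the gene with the nearest start site in the deposited annotation (build mm10), which does not show that the gene is controlled from it.

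TNFa is an inflammatory cytokine that binds the receptor TNFR1 and, through TRAF and cIAP adaptor proteins and the IKK kinases, frees NF-kB dimers such as p65/p50 to enter the nucleus. NF-kB binds kappaB sites in DNA and switches on chemokines, adhesion molecules, survival factors and its own inhibitors, among them IkBa (Nfkbia) and A20 (Tnfaip3), which end the signal. In bone, TNFa is known to restrain osteoblast differentiation and to make osteoblast-lineage cells release factors that recruit and activate other cells.

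Sequences were taken from the RefSeq promoter table (GRCm38.p6, the assembly of mm10), which runs from 250 bases before each start site to 50 after it. They are shown for genes of the TNFa and NF-kB lists whose TNFa window reached into that stretch and held a kappaB-like word there. A word was GGGA or GGGG, any 2 bases, and then TTCC or TCCC, searched on both strands, and such words can overlap. Of the 9 windows found, 6 are printed, chosen after their values were seen, to cover the range of responses described below. Each runs 5′ to 3′ on the gene's strand, ends before the start site, and has the words in capitals.
Nfkb2, chr19:46305680-46305740, + strand: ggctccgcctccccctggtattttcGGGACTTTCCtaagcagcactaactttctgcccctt
Nfkbie, chr17:45555587-45555699, + strand: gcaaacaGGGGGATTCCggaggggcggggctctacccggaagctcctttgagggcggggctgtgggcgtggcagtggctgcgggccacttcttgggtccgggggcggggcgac
Irf1, chr11:53769888-53770012, + strand: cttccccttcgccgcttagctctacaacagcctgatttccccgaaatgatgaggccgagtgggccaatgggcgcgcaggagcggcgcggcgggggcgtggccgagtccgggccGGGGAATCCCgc
Cyld, chr8:88696824-88696948, + strand: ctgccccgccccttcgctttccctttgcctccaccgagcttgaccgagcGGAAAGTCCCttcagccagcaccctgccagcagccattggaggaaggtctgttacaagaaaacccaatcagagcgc
H2-K1, chr17:34000341-34000465, - strand: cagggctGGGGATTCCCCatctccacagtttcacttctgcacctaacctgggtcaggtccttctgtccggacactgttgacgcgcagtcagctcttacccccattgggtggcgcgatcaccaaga
Tnfrsf9, chr4:150927922-150927998, + strand: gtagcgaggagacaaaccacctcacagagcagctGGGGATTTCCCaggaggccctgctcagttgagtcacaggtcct
The other 3 windows belonged to B2m, Sdc4 and H2-D1. A match to a word describes the letters and is not evidence of binding.

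Depth differed with the groups, so depth and treatment cannot be told apart. Total tags were 30.1 M and 29.1 M in untreated replicates 1 and 2 and 16.5 M and 19.7 M with TNFa, and the median window of a list held 35 and 44 tags against 20 and 30. Windows of the group's own list took up 5.98% ± 1.22 (SD, n = 2) of all tags in untreated libraries and 5.24% ± 0.52 with TNFa, a difference of -0.75 percentage points (exact permutation test, two-sided, p = 0.667, where 2 against 2 cannot go below 0.333), and without untreated replicate 2 the difference was 0.11. The libraries also differed in a way the groups do not explain. Across tested windows, untreated replicate 1 was more like TNFa replicate 1 (r = 0.861 on the log2 scale) than like untreated replicate 2 (r = 0.593). The TNFa replicates correlated at 0.662, while TNFa replicate 2 correlated at 0.785 and 0.765 with untreated replicates 1 and 2. Each library was thus closer to a library of the other group than to its own replicate. Of the osteoblast markers, 11 of 13 had a paired window, Alpl and Bglap having none, with summed normalised tags of 2791 and 3500 untreated and 2807 and 2780 with TNFa. Only 2 of 14 haematopoietic markers (Csf1r and Runx3, with Ptprc and Spi1 absent), 2 of 9 adipocyte markers and 4 of 13 muscle or endothelial markers had one, whereas 6 of 12 chondrocyte markers did. In such bulk samples, fewer cells with an open site and less opening per cell cannot be told apart.

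No single window passed the test across all windows. With limma on log2(normalised tags + 2), adjusted by Benjamini-Hochberg over 18652 windows, 0 windows were higher and 0 lower (0% in each direction, smallest adjusted p = 1). At an unadjusted p under 0.05 there were 184 windows (0.986%), 91 higher and 93 lower, and 168 with limma-voom weights. That is fewer than this threshold alone would give without any difference. The median standard error of a log2 fold change was 0.67, and 90% of windows lay between -0.94 and 0.91, so most differences were smaller than the spread between replicates. Both TNFa libraries lay above both untreated ones in 1649 windows (8.84%) and below both in 1960 (10.5%). Scaled by total tags in place of tags in windows, which moved the median of all windows from 0.00 to -0.15, these shares were 6.62% and 12.7%. All fold changes below are log2 differences of the group means on the log2(normalised tags + 2) scale, which understates the change of low windows, with limma's standard error, and are descriptions of windows that did not pass the test.

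The clearest differences lay away from promoters, in both directions. Of the 12 windows with the smallest p among those higher in both TNFa libraries, 8 were intergenic, 3 intronic and 1 at a transcript end, with log2 fold changes of 2.04 to 2.82. Ccl2, the chemokine that draws monocytes, had such a window at chr11:82033068-82033192, 2447 bases upstream of its start. It held 15.9 and 33.7 normalised tags in the untreated libraries and 85.7 and 159.2 with TNFa (log2 fold change 2.23 ± 0.70, SE). The groups did not overlap, and in both groups replicate 2 was the higher one.

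A window 11264 bases upstream of Pdgfb, which encodes a growth factor for mesenchymal cells (chr15:80026179-80026303), held 26.2 and 29.6 normalised tags untreated and 221.8 and 116.7 with TNFa (2.45 ± 0.68). The 2 untreated values were close together and both TNFa values were well above them. Pdgfb also had a window with both TNFa libraries below both untreated ones. The window with the smallest p, 86730 bases from the start of A530013C23Rik (chr2:167777845-167777969), held 32.6 and 36.4 against 290.7 and 163.5 (2.59 ± 0.67, limma unadjusted p = 0.00252). Cx3cl1, which encodes the membrane-bound chemokine fractalkine, had 27.0 and 13.1 against 105.8 and 72.0 in a window 13322 bases downstream of its start (2.10 ± 0.67). Gdnf, a neurotrophic growth factor, had 16.7 and 11 against 90.7 and 42.5 (2.04 ± 0.65). In the higher windows just given, TNFa replicate 1 held more than TNFa replicate 2, unlike in the Ccl2 window.

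Further windows of this set lay near Herc1 (19.8 and 4.1 against 102.5 and 62.1), Mapt, which encodes the microtubule protein tau (23.8 and 17.9 against 105.8 and 89.4), Med13l, Zzz3, Mir5617, 9330111N05Rik and 1700028E10Rik. None of the 12 was annotated as a promoter. Without untreated replicate 2, their log2 fold changes ran from 1.47 (Med13l) to 2.72 (Ccl2), with 2.52 for Pdgfb.

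The 12 windows with the smallest p among those lower in both TNFa libraries comprised 7 intergenic and 5 intronic windows, with log2 fold changes of -2.37 to -1.79. The highest levels were near Foxn2, a forkhead transcription factor gene, at chr17:88326488-88326612, with 154.8 and 191.8 normalised tags untreated and 35.3 and 40.3 with TNFa (-2.13 ± 0.65). Here replicates were close within each group. A window in intron 1 of Speer5-ps1, a pseudogene, held 84.2 and 96.9 against 18.5 and 17.4 (-2.21 ± 0.63). Vgll4, a cofactor of TEAD transcription factors, had 69.9 and 104.5 against 13.4 and 24 in its intron 1 (-2.13 ± 0.66). Plin2, which encodes a coat protein of lipid droplets, had 57.2 and 69.4 against 13.4 and 20.7 upstream (-1.80 ± 0.62). The others lay near Cxcl17, Dlc1, Prdm1, March6, Palld, A230001M10Rik, BC016548 and Gm5069, and in several of them untreated replicate 2 was far above replicate 1, as near Cxcl17 (46.8 and 152.0 against 8.4 and 25.1). Without untreated replicate 2 the values ran from -2.09 (Speer5-ps1) to -1.27 (Palld), and Cxcl17 had -1.52.

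**Figure D1:**
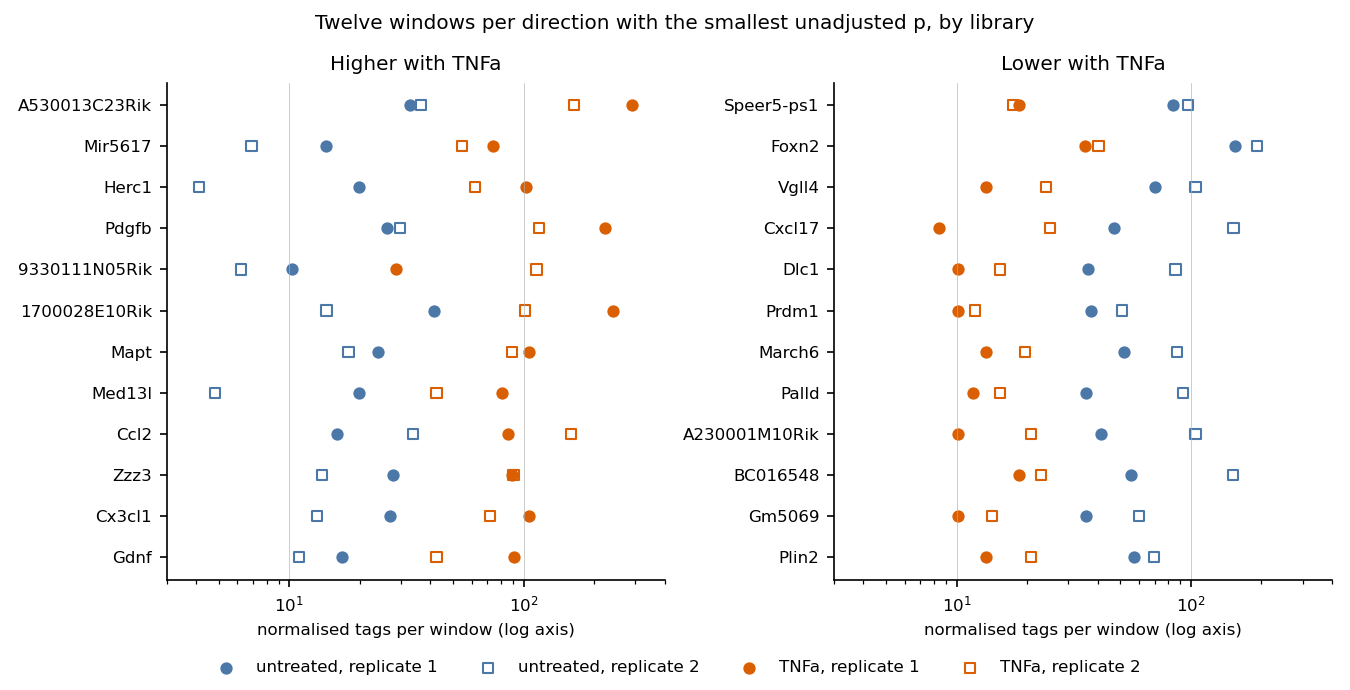
Normalised tags per library (log axis) in the 12 windows per direction with the smallest unadjusted p, 1 row per window named by its nearest gene. Circles are replicate 1, open squares replicate 2, blue untreated and orange TNFa. In the Pdgfb row the untreated libraries sit at 26.2 and 29.6 and the TNFa libraries at 221.8 and 116.7.

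By position, promoters and distal windows differed in balance. Among 7239 promoter windows, 7.21% had both TNFa libraries above both untreated ones and 5.17% below, and 2.6% were at least doubled against 1.02% at least halved (3.7% and 4.01% of all windows). Among 5246 intronic windows these shares were 9.63% and 14.4%, with 4.46% at least doubled and 6.35% at least halved, and among 5339 intergenic windows 10.2% and 14.1%. Beyond 50 kb from a start site, 9.96% were higher and 16.5% lower, with a median log2 fold change of -0.11, against 7.52%, 5.04% and 0.07 within 1 kb. The classes were not tested against each other. Promoters took 46.0% and 44.6% of the tags in tested windows in untreated replicates 1 and 2, and 46.4% and 47.2% with TNFa. Intergenic windows took 24.6% and 25.7% against 24.6% and 24.3%, so replicate 1 of the 2 groups differed little. The part of untreated replicate 2 in this balance was not tested.

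Genes that shut NF-kB off were the first list examined. Of 42 windows of 17 such genes, 28 had a log2 fold change above 0, against 50.2% of all windows (median 0.29, against 0.00 over all windows). Both TNFa libraries lay above both untreated ones in 11, against 8.84% of all windows. Both lay below in 3, near Ier3, Socs3 and Tnfaip8, against 10.5%. Nfkbia, which encodes IkBa, had 4 paired windows, all downstream of the gene. The one 27680 bases from its start (chr12:55464905-55465029) held 43.7 and 16.5 normalised tags untreated and 126.0 and 89.4 with TNFa (1.90 ± 0.71). Its neighbour at 28085 bases held 54.8 and 9.6 against 151.2 and 46.9 (1.75 ± 0.87), so that untreated replicate 1 exceeded TNFa replicate 2 there. Without untreated replicate 2 the pair of windows had 1.24 and 0.61, and the median of the whole list was 0.20. Over the alternatives this median ran from 0.08 (windows within 10000 bases of a start) to 0.45 (without TNFa replicate 2). It was 0.14 when scaled by total tags and 0.13 with identical coordinates only. The windows of Nfkbie, which encodes IkBe, Bcl3, a nuclear partner of p50 and p52, and Zc3h12a, an RNase that degrades cytokine mRNAs, were also among the 11. Nfkbie held 47.6 and 28.2 against 80.6 and 66.5 in the promoter window whose sequence is shown above (0.96 ± 0.66, and 0.60 without untreated replicate 2). Cyld, a deubiquitinase of the same list, had a kappaB-like word in its promoter window too but held 79.4 and 181.5 untreated and 110.9 and 46.9 with TNFa (-0.72 ± 0.73), with overlapping groups.

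Tnfaip3, which encodes A20, had 1 tested pair, 30806 bases upstream (20.6 and 24.8 against 28.6 and 26.2, 0.25 ± 0.60), where the groups were separated by a small margin. Its promoter was open in both lists, but the windows were placed more than 62 bp apart and were not paired. They held 70 and 78 tags untreated and 35 and 66 tags with TNFa. Scaled to a library total of 1000000 tags (RPM), this was 2.33 and 2.68 against 2.12 and 3.34. The Nfkbia promoter was likewise listed at 2 places, with 0.97 and 3.4 RPM untreated, 28 bases after the start, and 4.55 and 11.25 RPM with TNFa, 116 bases before it. As these windows differ in place, the values were not tested against each other.

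The genes of the NF-kB subunits themselves showed no common direction, with 5 of 10 windows above 0 (median -0.06) and 1 window separated each way, for Nfkb2 and Rel. Of all windows, 8.84% were separated upwards and 10.5% downwards. The exception by size was a promoter window of Nfkb2, which encodes p100/p52 and is itself a known NF-kB target. It held 88.1 and 17.2 normalised tags untreated and 210.0 and 105.8 with TNFa (1.86 ± 0.83), so both TNFa libraries lay above both untreated ones although untreated replicates differed widely. Without untreated replicate 2, the low one, its log2 fold change was 0.75. The stretch of this window printed above has GGGACTTTCC, which starts 225 bases before a start site of the gene. Relb was open in both lists at positions that did not pair, and no window of Rela or Nfkb1 was separated between the groups.

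Of 53 windows of TNF receptor signalling genes, 34 were above 0 (median 0.12). In 7 both TNFa libraries lay above and in 5 below, against 8.84% and 10.5% of all windows. Map3k8, a kinase upstream of ERK, had 21.4 and 22 against 47.0 and 31.6 at its promoter. Tnfrsf1a, the receptor TNFR1, had 13.5 and 19.3 against 20.2 and 34.9 in an intron window. In the other direction, Tab2, which links TAK1 to ubiquitin chains, had 47.6 and 79.8 against 21.8 and 22.9 in a window 220444 bases upstream (-1.39 ± 0.64). The median of this list was -0.04 when scaled by total tags and -0.14 without untreated replicate 1.

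Chemokine genes had the highest median of the lists. Of their 18 windows, 17 were above 0 and 7 had both TNFa libraries above both untreated ones, against 8.84% of all windows. None lay below, against 10.5%. The median log2 fold change was 0.75 (0.80 without untreated replicate 2). Over the alternatives this median ran from 0.39 (windows within 10000 bases of a start) to 1.54 (mean of at least 30 tags), and it was 0.44 with identical coordinates only. The 7 belonged to Ccl2 (2 windows), Ccl5, Ccl11, Cx3cl1, Cxcl1 and Cxcl5. Cxcl1, a neutrophil attractant, had 20.6 and 7.6 against 99.1 and 28.3 in a window 14599 bases upstream (1.91 ± 0.75, and 1.07 without TNFa replicate 1). Ccl5 had 43.7 and 61.9 against 102.5 and 169.0 (1.31 ± 0.67), and Cxcl5 had 5.6 and 9.6 against 25.2 and 20.7 (1.41 ± 0.63). The Ccl2 promoter did not follow its upstream windows. It held 50.8 and 121.0 untreated and 73.9 and 128.7 with TNFa (0.31 ± 0.71), and its sign turned without untreated replicate 1 (-0.28) or TNFa replicate 2 (-0.11). Lists were chosen with earlier results of these data known, so these counts are descriptions.

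Cytokine and growth factor genes had 27 of 42 windows above 0 (median 0.28). Separated upwards were 8 and downwards 7, against 8.84% and 10.5% of all windows. The median was 0.13 without untreated replicate 2, 0.11 without TNFa replicate 2 and 0.15 when scaled by total tags. Lif, a cytokine of the IL-6 family, had a pair of neighbouring windows about 42 kb downstream of its start. The one at 42408 bases held 38.1 and 22.7 against 181.4 and 82.9 (1.99 ± 0.71), and the one at 41959 bases held 60.3 and 42.6 against 205.0 and 124.3 (1.62 ± 0.67). The other tested Lif windows had log2 fold changes of -0.29 to 0.46. Il6 had 51.6 and 14.4 against 97.4 and 43.6 at its promoter (1.18 ± 0.77, and 0.33 without untreated replicate 2), with overlapping groups. Tnfrsf11b, which encodes osteoprotegerin, the decoy receptor that restrains osteoclasts, had 19.8 and 50.2 against 11.8 and 16.4 in a window 12857 bases upstream (-1.09 ± 0.66, and -0.45 without untreated replicate 2).

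Interferon regulators and antigen presentation genes had 18 of 24 windows above 0 (median 0.44). Separated upwards were 8 and downwards 1, against 8.84% and 10.5% of all windows. The largest value of any list window was near Tlr2, a receptor for bacterial lipoproteins, 3394 bases upstream (chr3:83844940-83845064), with 34.9 and 2.1 untreated and 131.0 and 63.2 with TNFa (2.93 ± 0.94). Untreated replicate 2 was near 0 there, and without it the value was 1.33. The median of the list was 0.55 without that library. Tap1, a peptide transporter for MHC class I loading, had 95.3 and 86.6 against 147.8 and 133.0 at its promoter, where all 4 values were tight within groups. Irf1, a transcription factor of interferon responses, held 23 and 46.8 against 84.0 and 42.5 in the window printed above, with overlapping groups (0.82 ± 0.70).

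Survival genes had 30 of 44 windows above 0 with 4 separated each way, and death effector genes 14 of 26 with 2 each way. The separated counts of both lists were near the shares over all windows, 8.84% upwards and 10.5% downwards. The survival window with the smallest p was near Pim3, a kinase that opposes apoptosis, and was lower, with 46.8 and 200.8 against 16.8 and 29.4 (-2.03 ± 0.79). Its value was -1.0 without untreated replicate 2 and -3.03 without replicate 1. Of 118 windows of AP-1 and immediate early genes, 72 were above 0, and 24 were separated upwards and 9 downwards (median 0.15), beside the same shares. They included Junb, an AP-1 subunit, 1007 bases upstream (148.5 and 79.8 against 423.4 and 153.7), and Klf10, an early response factor (122.3 and 63.3 against 304.1 and 171.2). Without untreated replicate 2 their log2 fold changes were 0.78 and 0.89, against 1.21 and 1.35 with it. The median of the list was 0.02 when scaled by total tags.

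Osteoblast transcription factor genes had 41 of 75 windows above 0, with 11 separated upwards and 10 downwards, against 8.84% and 10.5% of all windows. Runx2, the master regulator of osteoblast fate, had values in both directions. Its promoter held 112.7 and 96.9 untreated and 119.3 and 116.7 with TNFa (0.17 ± 0.63), while an intronic window 146975 bases downstream held 94.5 and 116.9 against 53.8 and 28.3 (-1.38 ± 0.68). Osteoblast matrix and membrane genes tended lower, with 31 of 92 above 0, and 8 separated upwards and 14 downwards, against the same shares of all windows. Their median was -0.26, which stayed below 0 under all 16 alternatives but was -0.10 without untreated replicate 2. Phospho1, a phosphatase of early mineralisation, had 100.0 and 132.0 against 47.0 and 39.2 (-1.38 ± 0.66), and Ibsp, bone sialoprotein, 46.1 and 96.3 against 37.0 and 32.7 (-0.90 ± 0.68, and -0.38 without untreated replicate 2). Windows near Bgn and Dcn, which encode small matrix proteoglycans, were the other way, with 24.6 and 37.8 against 79.0 and 89.4 near Bgn. Dcn also had a window separated downwards. Chondrocyte markers also tended lower (5 of 16 windows above 0, median -0.31), with summed normalised tags of 798 and 990 untreated and 682 and 649 with TNFa. Muscle or endothelial markers had 2 of 11 windows above 0 (median -0.30) and haematopoietic markers 4 of 9 (median -0.21), whereas the osteoblast marker list itself had 27 of 53 (median 0.01). The part of these markers in the lower osteoblast matrix values was not tested.

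Matrix proteases and inhibitors had 46 of 81 windows above 0 (9 separated upwards, 6 downwards), adhesion and surface receptors 18 of 40 (3 and 3), and BMP and SMAD target genes 25 of 52 (5 and 4). The shares over all windows were 8.84% upwards and 10.5% downwards. Housekeeping genes, taken as controls, had 35 of 59 above 0, with 4 and 3 separated and a median of 0.12, which was -0.03 when scaled by total tags.

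**Figure D2:**
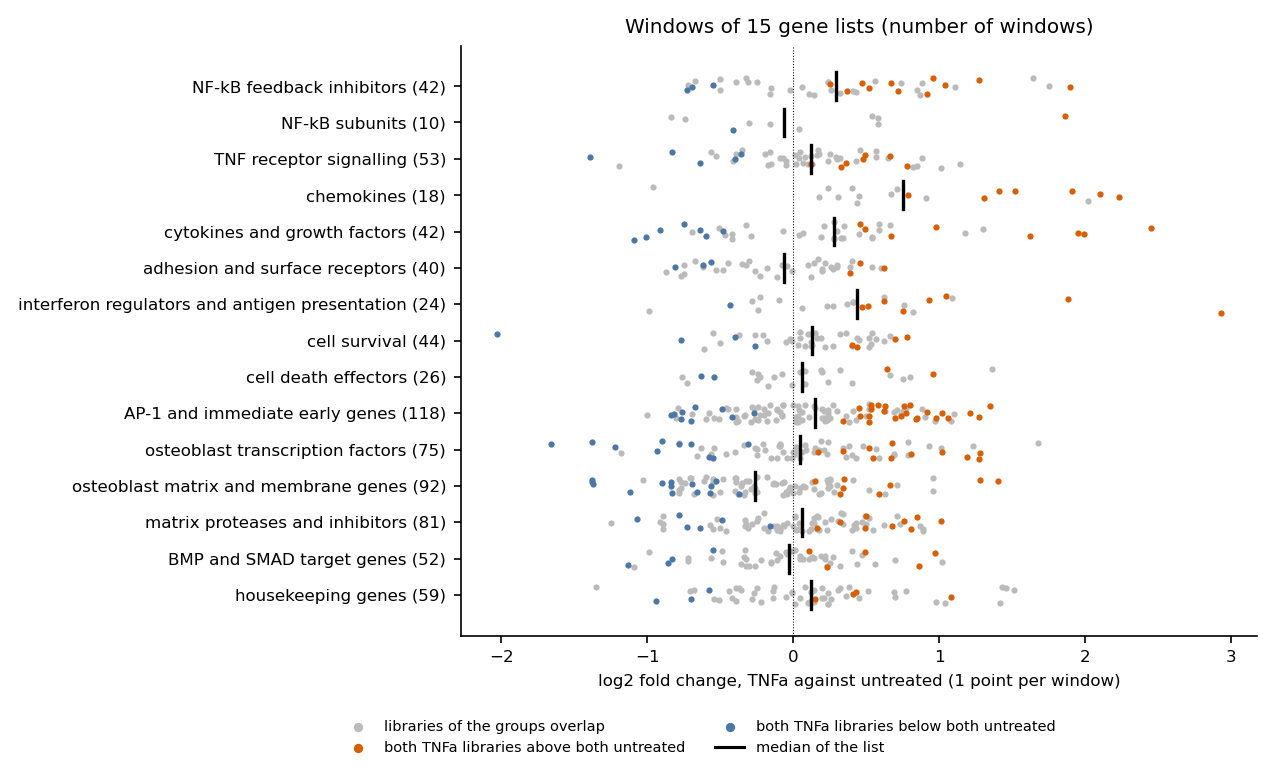
Log2 fold change, TNFa against untreated, of each tested window (1 point) of 15 gene lists. Orange points have both TNFa libraries above both untreated ones, blue points both below, grey points overlap, and black bars are list medians. Chemokine windows have the highest median, 0.75, and osteoblast matrix windows the lowest, -0.26.

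Windows found in only 1 list added sites that the paired test cannot see. A window that is absent from a list has no value there, so absence is not a level of 0. Of the untreated list, 5285 windows (20.1%) had no TNFa window within 500 bp, and of the TNFa list 2031 (8.72%) had no untreated one. They held less than paired windows, at medians of 0.70 RPM (untreated list) and 0.69 RPM (TNFa list) against 1.80 and 1.54. Those of the untreated list held a median of 13 tags in replicate 1 and 27 in replicate 2, and those of the TNFa list 10 and 13, so the untreated ones rested more on replicate 2, whose part in this was not tested.

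The share of windows found in the TNFa list alone ran from 0 to 33.3% between gene lists, and was not tested. Of the windows assigned to a list, 10 of 30 for chemokines (33.3%), 17 of 63 for feedback inhibitors (27.0%), 17 of 66 for adhesion and surface receptors (25.8%) and 8 of 35 for interferon and antigen presentation genes (22.9%) had no untreated window nearby, against 8.72% of the whole TNFa list. These chemokine windows belonged to 4 genes and the feedback inhibitor windows to 7, so windows of a list share loci. TNF receptor signalling genes had 13 of 67 (19.4%), cytokines and growth factors 10 of 61 (16.4%) and BMP and SMAD target genes 11 of 70 (15.7%). The share was 0 of 12 for the NF-kB subunits, 0 of 46 for survival genes, 1 of 66 for housekeeping genes and 3 of 107 for osteoblast matrix genes. In the untreated list it was 35 of 121 for osteoblast transcription factors (28.9%) against 20.1% of the whole list, and 1 of 20 for chemokines. Markers of other cell types had higher shares there, with 14 of 33 for chondrocytes (42.4%), 6 of 17 for muscle or endothelium (35.3%) and 2 of 6 for adipocytes (33.3%), and osteoblast markers had 10 of 69 (14.5%). Their part in the share of the osteoblast factors was not tested.

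Icam1, an adhesion molecule for leukocytes, had 3 windows in the TNFa list and 0 in the untreated list. The one in an intron 6489 bases from the start held 77 and 54 tags (4.67 and 2.74 RPM), and the background libraries had 0.13 RPM there. Birc3, which encodes the ubiquitin ligase cIAP2, had a single window, in its 5′ UTR, with 11 and 113 tags (0.67 and 5.73 RPM against 0.3 in the background), so that it rested mainly on TNFa replicate 2. Ccl2 had 8 windows with TNFa and 4 without, Nfkbia 10 and 5, Tnfaip3 6 and 2, and Csf1, the macrophage growth factor, 9 and 5. The Tnfaip3 windows of the TNFa list alone were weak, at 0.12 to 0.91 RPM. Those of Nfkbia held from 7 and 4 tags to 23 and 37. Il6 and Nfkb2 had fewer with TNFa, 2 and 3 each, while Vcam1 had 4 and 3. Nfkb1 had 4 in each list, Lif 8, Cxcl1 2 and Relb 1.

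Among the 8 strongest windows of the TNFa list alone was one 18976 bases upstream of Ccl2, with 38 and 150 tags (2.3 and 7.6 RPM) over 0.39 RPM in the background libraries. Another lay 11055 bases upstream of Mir146, whose miRNA damps TRAF6 and IRAK1, with 57 and 107 tags. Those near Baiap2 (99 and 127 tags), Ltv1 (89 and 74) and Scd2 (100 and 51) held similar amounts. Fas, a death receptor, had a promoter window with 30 and 43 tags, and H2-K1, an MHC class I gene, one with 19 and 42 tags at the overlapping kappaB-like words printed above. Reads of H2-K1 may be shared with its near-identical relatives such as H2-D1, so that value is uncertain. Tnfrsf9, the TNF receptor family member 4-1BB, had only 8 and 6 tags in its promoter window (0.49 and 0.3 RPM). The background libraries held 4 and 2 tags there (0.06 RPM). Among windows of the untreated list alone, the strongest near a bone gene was 7238 bases upstream of Col1a1, with 55 and 209 tags.

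**Figure D3:**
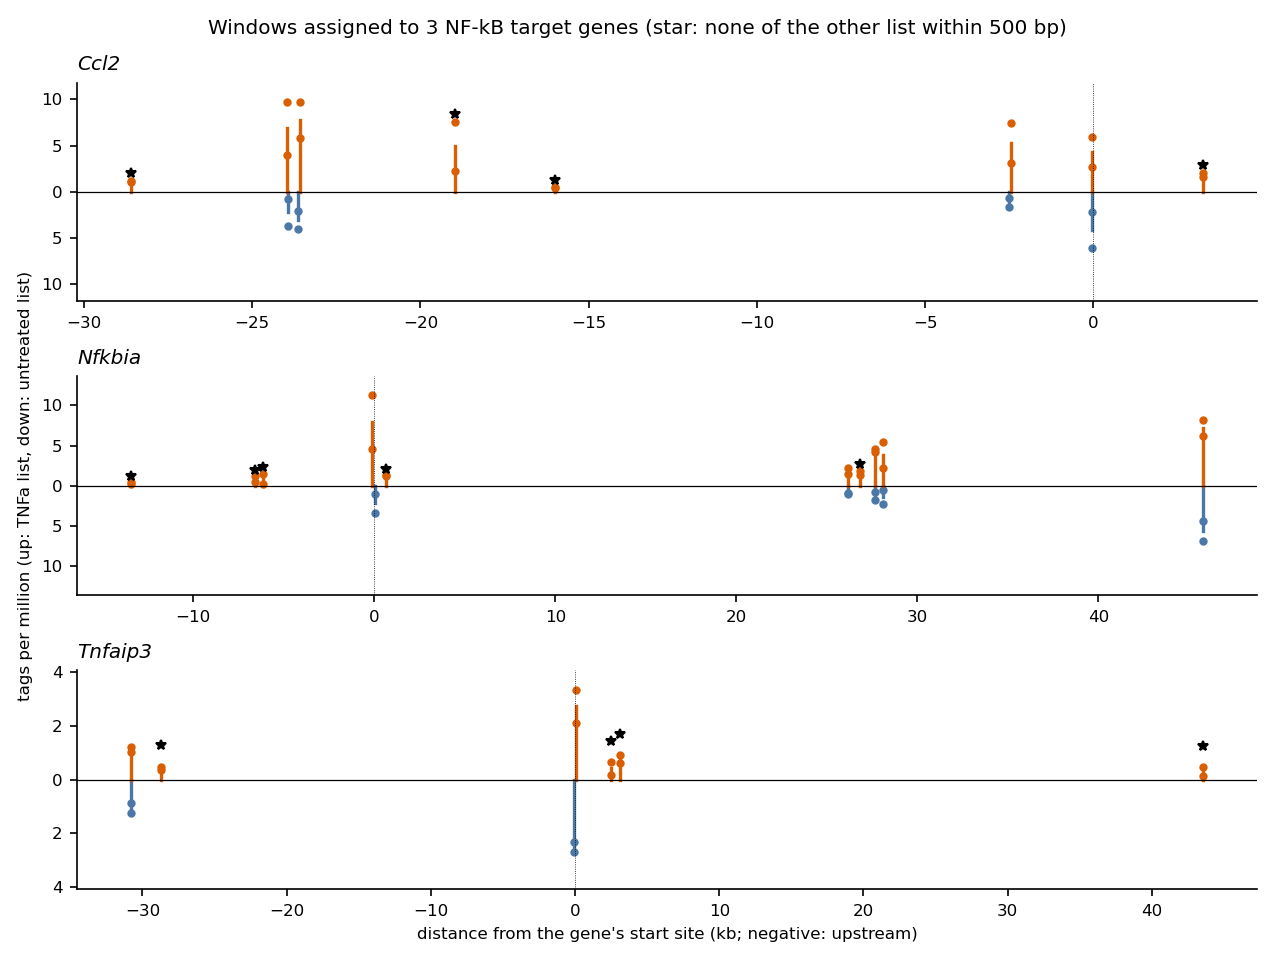
RPM (tags per library total, scaled as above) at the windows assigned to Ccl2, Nfkbia and Tnfaip3, against distance from the start site in kb. Bars are means and points the 2 libraries, upwards for the TNFa list and downwards for the untreated list, and a star marks a window with none of the other list within 500 bp. Ccl2 has 8 windows in the TNFa list and 4 in the untreated list.

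**Figure D4:**
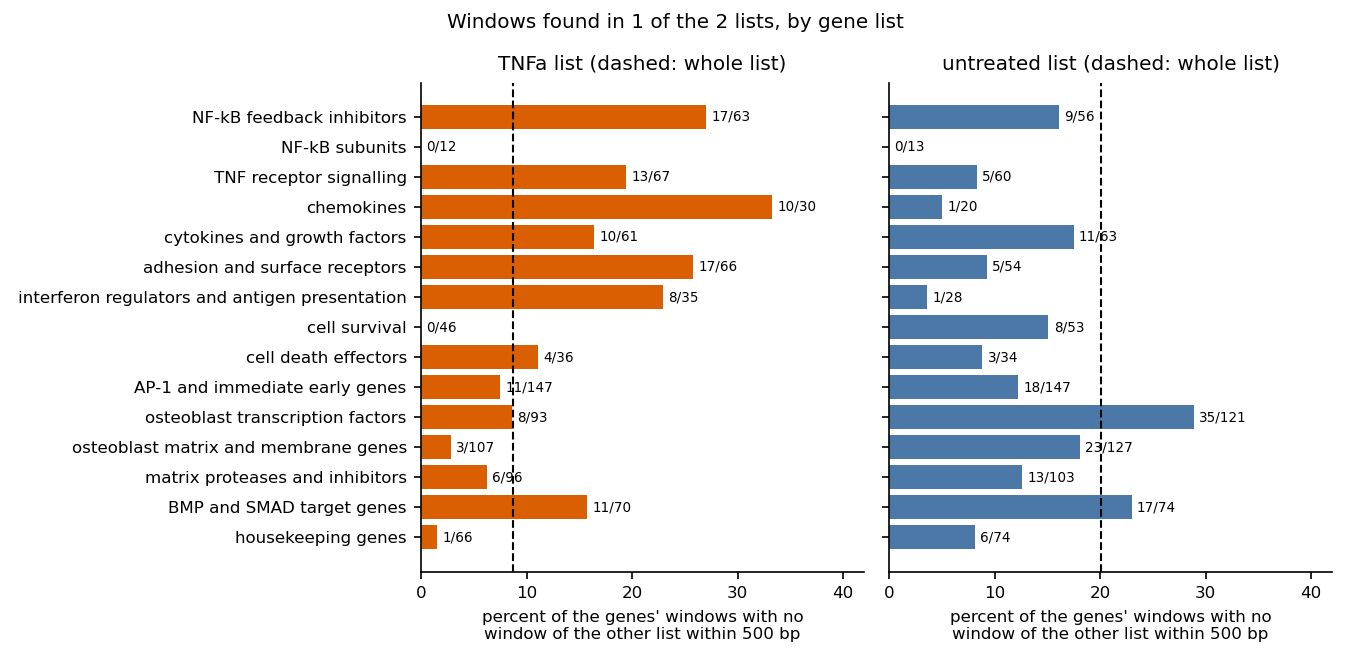
Percent of the windows of each gene list with no window of the other list within 500 bp, for the TNFa list (left) and the untreated list (right), with counts beside the bars and the share of the whole list dashed. Chemokines reach 33.3% on the left, against 8.72% of the whole list.

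KappaB-like words were more frequent in promoter windows of the TNFa list alone. Of 157 such windows lying wholly within the promoter table, 13 held a word (8.28%, 95% Wilson interval 4.9 to 13.7%), against 129 of 3843 paired windows (3.36%, 2.83 to 3.97%) and 6 of 354 windows of the untreated list alone (1.69%, 0.779 to 3.65%). Of all promoters of the table, which are 300 bases long, 4.95% held one. The AP-1-like word TGANTCA was in 4.46% and 5.08% of windows of the TNFa and untreated lists alone and 2.39% of paired windows, and the RUNX-like word TGTGGTT in 1.91%, 0.565% and 1.33%. Among 79 tested promoter windows at least doubled with TNFa, 6 held a kappaB-like word (7.59%, 3.53 to 15.6%), against 3.37% of all 3831. Of 42 at least halved, 2 held one (4.76%, 1.32 to 15.8%). The AP-1-like word was in 5 of the same 79 (6.33%, 2.73 to 14%), in 2 of the 42 (4.76%) and in 2.38% of all 3831. Tested promoter windows with a kappaB-like word had a median log2 fold change of 0.05, and those without it -0.01. Intervals cover counting error only, and tags are not independent molecules.

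TNFa was also given to cells together with BMP4 (10 ng/ml). A comparison of those 2 libraries with the 2 given BMP4 alone shares no library with the comparison above. It does share the direction of the depth difference. Total tags were 26048595 and 27922813 in the libraries given BMP4 alone, and 21757662 and 18842390.5 in those given both factors. Depth and treatment thus cannot be told apart in this comparison either, and the part of depth in the values below was not tested. Of the 12 named higher windows, 6 were in all 4 lists, and all 6 had both TNFa libraries above in that comparison too, with a log2 fold change of 1.83 ± 0.71 for Ccl2, 2.72 ± 0.72 for Pdgfb and 2.49 ± 0.75 for Gdnf. Of the 12 lower windows, 9 were in all 4 lists, all 9 were lower again and 8 without overlap. Nfkb2 had 1.85 ± 0.85 and the Nfkbia window at 27680 bases 1.65 ± 0.83. Only windows in all 4 lists and tested in both comparisons could be followed. They included 1216 of the 1649 with both TNFa libraries above in the first comparison, and 1571 of the 1960 below. Of the 1216, 37.8% were above in the second, against 12% of its windows, and of the 1571, 40.4% were below, against 13%. Over 14434 windows the fold changes correlated with r = 0.772 (rho = 0.755), as a description across windows.

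Libraries of the 2 comparisons resembled each other beyond their labels, however. Untreated replicate 2 and BMP4 replicate 2 correlated at 0.953, and differences taken within replicate 2 correlated at 0.8 but those within replicate 1 at 0.301. In replicate 1 alone, the TNFa with BMP4 library exceeded the BMP4 library in 71.2% of the windows that were higher with TNFa, against 49.5% of all windows, and was below it in 74% of those that were lower, against 50.5%. In replicate 2 these were 82.4% and 88.4%. Over both replicates, the list medians of the second comparison were 0.69 for chemokines, 0.56 for interferon and antigen presentation genes, 0.46 for cytokines and 0.25 for feedback inhibitors. They were 0.03 for AP-1 genes, -0.08 for osteoblast matrix genes and -0.11 for TNF receptor signalling genes. Of 39 windows of the last list, 5 were separated upwards and 8 downwards, against 12% and 13% of the windows of that comparison. For chemokines, 8 of 12 windows were above 0 in replicate 1 and 10 in replicate 2. For interferon and antigen presentation genes it was 17 of 19 and 10, for AP-1 genes 57 of 97 and 50, and for osteoblast matrix genes 38 of 76 and 35. A difference of the TNFa response between cells with and without BMP4 was called in 0 of 14712 windows (limma interaction term, 0 at an unadjusted p under 0.05). With replicates this unlike each other the term could hardly call a window, so it does not show that the responses were alike.

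**Figure D5:**
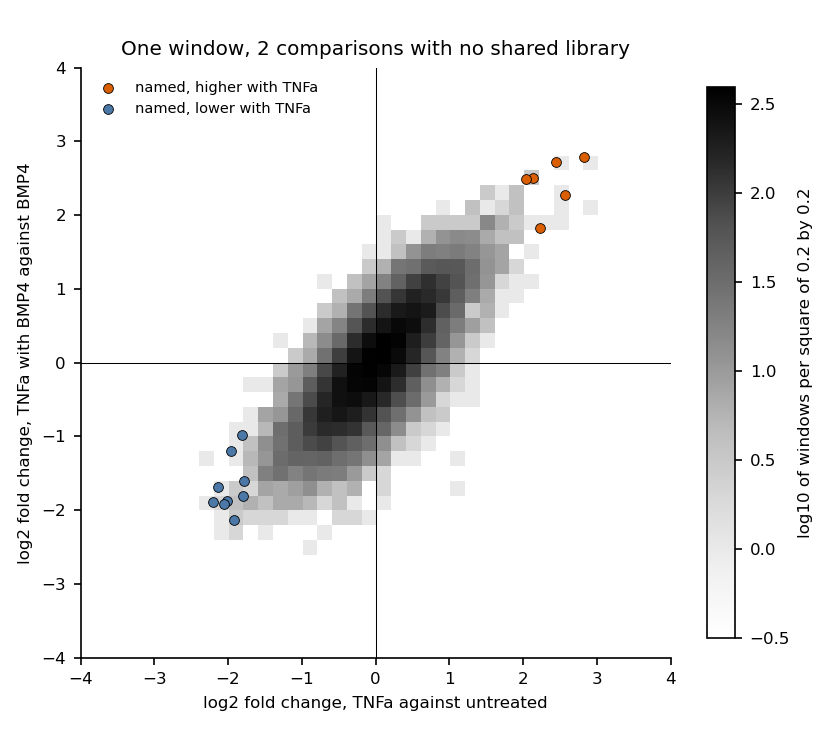
Log2 fold change of each window with TNFa against untreated (x) and with TNFa plus BMP4 against BMP4 (y), 14434 windows, shaded by the log10 number of windows per square. Coloured points are the named windows present in all 4 lists, 6 higher and 9 lower, all on the same side of 0 in both.

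The windows of 1 list were also looked up in the lists of the groups given BMP4. Of the 2031 windows of the TNFa list alone, 60.4% overlapped a window of the list of cells given both factors and 20.4% one of the BMP4 list. For the 5285 of the untreated list alone it was the reverse, with 20.1% and 58.5%, whereas paired windows overlapped both lists at about 88%. Those of the untreated list alone held a median of 13 tags in replicate 1 and 27 in replicate 2. Untreated replicate 2 correlated with BMP4 replicate 2 at 0.953, and the untreated and BMP4 libraries were the deeper ones. The part of these in the overlaps was not tested. Of the 10 chemokine windows of the TNFa list alone, 5 were in the list with both factors and 0 in the BMP4 list, and of the 17 for adhesion and surface receptors 14 and 3.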

How the data were processed

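MC3T3-E1 ATAC-seq windows of the untreated and TNFa groups were used, with 2 libraries each, and those of the BMP4 groups beside them. The tools that the authors used were HOMER 4.11, deepTools 3.5.1, Picard 2.25.1, Bowtie2 2.5.1 and Trimmomatic 0.39, with build mm10 (per the submitters' processing notes). No source used here says whether reads were shifted for the transposase. HOMER called the windows on pooled replicates against sonicated DNA, per the file headers. The deposited values are regularised log2 values fitted by the authors in each list, so lists do not share a scale. The deposited peak score served only to cut lists to one length.

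The tag counts behind the log2 values were solved for, 4 constants being fitted in each list. Of these counts, 99.94% (untreated) and 99.99% (TNFa) came out within 0.1 of a whole number, against 16.6% and 17.5% with constants 5% off, and background counts agreed in 100% of 7376 identical windows. Windows with at least 10 tags in at least 2 libraries and at least 15 in total were tested. Tags were scaled by trimmed mean of M-values (TMM, own implementation), and limma 3.58.1 (R 4.3.3) was fitted with a mean-variance trend and group as the only term over the 4 libraries, two-sided. The planned motif search over a genome was run on the promoter table (RefSeq). On simulated data the fit was tested.

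RPM values refer to total tags. Named windows are the 12 per direction with the smallest p among those whose groups do not overlap (1 per gene), up to 4 per gene list, windows of 13 NF-kB genes, and of windows in 1 list the 8 strongest per list and up to 4 per gene list. Other named windows were chosen after their values were seen. Members and lists were chosen with earlier results of these data known. Alternatives were other scalings, pseudocounts, filters, pairing limits and weights, a replicate block, and each library left out.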

Additional observations from a re-analysis of the deposited data

How the results depend on the processing

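Of 1351 values of the 97 named windows under 16 alternatives, 1336 kept their direction and 15, in 11 windows, did not, all when 1 library was left out. Windows whose groups do not overlap cannot change direction when 1 library is left out, so their part of this count follows from how they were chosen. Without untreated replicate 1 these were Ccl2 at its promoter (-0.28) and Csf1 at -14629 (-0.71). Without untreated replicate 2 they were Nfkb1 at 62544 (0.02) and 20510 (0.03), Sharpin (-0.09) and Lif at 4508 (-0.39). Without TNFa replicate 1 they were Nfkb1 at 62544 (0.10), Ackr3 (0.25), Sdc4 (0.23), Adamts5 (0.02) and Lif at 4508 (-0.60) and 35728 (0.27). Without TNFa replicate 2 they were Ccl2 at its promoter (-0.11) and Csf1 at -14629 (-0.74) and -33027 (-0.24). With each library left out in turn, the log2 fold changes of these windows ran from -0.28 to 0.92 (Ccl2), -0.74 to 1.16 and -0.24 to 0.93 (Csf1), -1.61 to 0.10 and -0.32 to 0.03 (Nfkb1), -0.60 to 0.96 and -0.86 to 0.27 (Lif), -0.09 to 2.40 (Sharpin), -2.00 to 0.25 (Ackr3), -1.79 to 0.23 (Sdc4) and -2.53 to 0.02 (Adamts5). The cause was not tested. In the same fits 0 to 1 windows were called higher and 0 to 1 lower, the 1 in each direction without untreated replicate 1, and the lone library of a group is assumed to vary like the other group. The share of windows without overlap then ran from 23.4% to 35.6% (higher) and 21.9% to 36.6% (lower), since 2 libraries face 1. The medians of the chemokine, feedback inhibitor, cytokine, interferon, AP-1 and osteoblast matrix lists kept their sign under all 16 alternatives. Those of NF-kB subunits and osteoblast markers changed sign under 6 each, BMP and SMAD target genes under 5 and osteoblast transcription factors under 4. Adhesion and surface receptors and death effectors changed under 3 each, and TNF receptor signalling and matrix proteases under 2 each. Housekeeping and survival genes changed under 1 each. Windows of the TNFa list without a pair numbered 4267, against 2031 with none within 500 bp.

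The replicate numbers are shared between the groups, but nothing in the labels pairs them, and the difference between replicates 1 and 2 of the untreated group correlated with that of the TNFa group at 0.548 over windows. With the replicate block, 16 windows were called higher and 5 lower (smallest limma adjusted p = 0.00246), among them those of Ccl2, Pdgfb and Tlr2. The prior variance of limma had 87.16 degrees of freedom in this fit, against 8.976 without the block. These p-values therefore rest almost wholly on a variance shared across windows, and hardly on each window's own spread. Depth limits the comparison most in the TNFa libraries, with 16.5 M and 19.7 M tags.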
